A study of Mus musculus with 6 samples.

Results

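The constitutive proteasome subunits were taken as every gene probe whose gene name was Psma, Psmb, Psmc, Psmd or Psme followed by a number, leaving out the immunoproteasome subunits Psmb8, Psmb9 and Psmb10. The rule found 40 genes of the 30222 named on the array, measured by 51 of 39429 gene probes. The core particle had 18 probes for 16 genes (Psma and Psmb), the regulatory particle 26 probes for 20 genes (Psmc and Psmd), and the remaining 7 probes belonged to the 4 activator genes Psme1 to Psme4. The name does not settle the function: Psma8 and Psmb11 are tissue-restricted core subunits, and Psmd5, Psmd9 and Psmd10 encode factors that help assemble the regulatory particle and leave it.

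Total RNA was measured on 1-colour Agilent arrays in mouse embryonic stem (ES) cells of 2 genotypes, wild type and Zscan5b knockout, with 3 arrays each that the labels call biological replicates. Zscan5b belongs to the SCAN domain family of zinc finger proteins. Cells of both genotypes grew with leukemia inhibitory factor on mouse embryonic fibroblasts that mitomycin C had stopped from dividing, so RNA of the feeder cells could be in every sample. The labels do not give the deleted part of the gene, the strain or sex of the lines, or whether the knockout cultures come from 1 clone, and p-values measure only the spread between these cultures.

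The proteasome degrades proteins tagged with ubiquitin. Its core particle (20S) is a barrel of stacked rings of alpha and beta subunits, with the protein-cutting sites inside the beta rings. The regulatory particle (19S) caps the barrel, where a ring of ATPases unfolds the substrate and non-ATPase subunits bind and remove ubiquitin. The subunits are made in fixed proportion, and in mammals the transcription factor Nfe2l1 raises their genes together when proteasome activity is short, through antioxidant response elements in their promoters. In ES cells, proteasome activity is known to be high and to support self-renewal.

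All 3 wild type arrays lay on 1 slide and scan and all 3 knockout arrays on another, so slide and genotype cannot be told apart in any value below. The 75th percentile of signal was 852.43 to 1028.4 over the arrays, and 26649 probes were tested. Of these 0.465% (124) passed the limma test at an adjusted p under 0.05, a count that was 2557 without wild type replicate 2, 640 without wild type replicate 1 and 0 without any other array. Levels are log2 signal after subtraction of the array's own 75th percentile, differences are knockout minus wild type, and a level can be compared between arrays but not between probes. The Zscan5b probe read -3.66, -4.03 and -3.12 in wild type against -4.47, -5.17 and -5.13 in the knockout, a difference of -1.32 ± 0.29 (SE, n = 3 per group, limma adjusted p 0.107), and stayed above background on all 6 arrays. All 10 ES cell markers were well above background on every array, and so were all 25 feeder fibroblast markers. A lower level in such a mixed sample cannot tell fewer cells of a type from less RNA per cell.

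Of the 51 proteasome probes, 49 were well above background on all 6 arrays and were tested. Psmb11, the beta subunit of the thymus proteasome, was not well above background on any array. Another probe of Psme2, whose listed span reaches far beyond the gene's other probes, was above background on 1 wild type array only and was not tested either. Psma8, the alpha subunit of the testis proteasome, was above background on all 6 arrays.

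Nearly all probes of the core and regulatory particles had a negative difference, and the activators had differences of both signs. Of 43 tested core and regulatory probes, 42 had a negative difference, with a median of -0.29 (81.7% of wild type) against -0.01 over all tested probes. No member passed the test. The lowest limma adjusted p was 0.101, for Psmb5. At an unadjusted p under 0.05, 21 of the 43 were lower and 0 higher, where the shares over all tested probes were 11.3% lower and 10.6% higher. The knockout arrays all lay below the wild type arrays in 31 of the 43, against 15.4% of all tested probes, and all lay above in 0, against 13.6%. The other 12 overlapped.

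**Figure D1:**
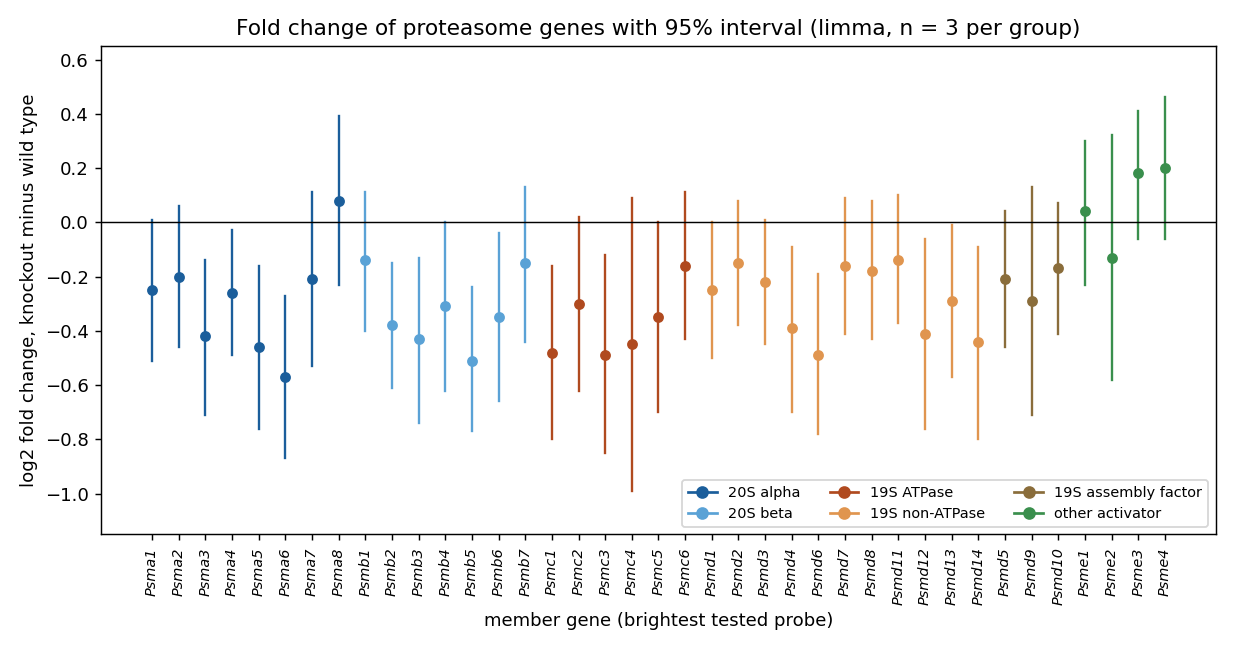
Log2 fold change (knockout minus wild type) of the 39 tested member genes at the brightest tested probe of each, with limma's 95% confidence interval (n = 3 arrays per group), coloured by role. The 20S and 19S genes lie below 0 except Psma8, and 3 of the 4 activator genes lie above 0.

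Promoters of the members are shown here because the genes read lower together. The RefSeq promoter table (build GRCm38.p6) covers 250 bases before and 50 after each start and held 33 of the 40 genes. Letters searched on both strands were TGACNNNGC, the core of the antioxidant response element, and CCAAT, the box bound by the factor NF-Y. A match of one does not contain a match of the other. The antioxidant core was in 2 of 13 core particle promoters (15.4%) and 3 of 18 regulatory particle promoters (16.7%), against 12.4% of 32851 promoters. It was also in 1 of 5 activator promoters (20%), that of Psme4. CCAAT was in 7 of 13 (53.8%), 5 of 18 (27.8%) and 1 of 5 (20%), against 37.4%. A match is a run of letters and no evidence of a bound factor. The stretches around the matches before the start are given for 1 promoter of Psmb5, with the antioxidant core in capitals, and for Psma6, Psmb3 and Psmc1, with CCAAT or its complement in capitals. They were chosen among promoters with a match because the messages of these genes were among the more strongly lower ones. For Psmd6, Psmc3 and Psma5, at -0.49, -0.49 and -0.46, no promoter was held or no match was found. Psma2 and Psma7, at -0.20 and -0.21, held CCAAT as well. Whether a match goes with the size of the difference was not tested.
Psmb5, chr14:54618019-54618057, minus strand: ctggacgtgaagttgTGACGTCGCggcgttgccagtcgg
Psma6, chr12:55384071-55384212, plus strand: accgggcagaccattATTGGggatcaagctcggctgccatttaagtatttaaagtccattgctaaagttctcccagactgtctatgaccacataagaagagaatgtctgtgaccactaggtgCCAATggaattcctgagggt
Psmb3, chr11:97703334-97703410, plus strand: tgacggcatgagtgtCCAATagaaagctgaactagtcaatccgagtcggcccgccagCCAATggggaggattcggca
Psmc1, chr12:100110012-100110046, plus strand: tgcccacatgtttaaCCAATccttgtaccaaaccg

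The Psmb5 match began 47 bases before the start, and the matches of Psmb3 began 85 and 43 bases before it. Psma6 had 2 promoters in the table, and the one shown held matches that began 136 and 29 bases before the start. Psmd9 and Psmc6, where the difference at the brightest probe was -0.29 and -0.16, also held the antioxidant core: in Psmd9 it began 31 bases before the start and in Psmc6 227 bases.
Psmd9, chr5:123228144-123228182, plus strand: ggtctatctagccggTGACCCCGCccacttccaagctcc
Psmc6, chr14:45329582-45329620, plus strand: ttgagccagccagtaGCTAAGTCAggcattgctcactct

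The alpha subunits form the outer rings of the barrel, whose tails gate the entrance. Of 9 tested alpha probes for 8 genes, 8 were negative, with a median of -0.25 (84.0% of wild type), and 0 passed the test. The lowest value belonged to Psma6 (alpha 1), at a probe on mm9 chromosome 12, 56511127 to 56511186 on the plus strand. Its level was 4.71, 4.56 and 4.86 in wild type against 4.28, 4.12 and 4.03 in the knockout. All knockout arrays lay below all wild type arrays, and the means were 4.71 ± 0.15 and 4.14 ± 0.12 (SD, n = 3). The difference was -0.57 ± 0.12 (SE, limma adjusted p 0.106), or 67.5% of wild type. Leaving out wild type replicate 2 (-0.64, adjusted p 0.0426) or weighting the arrays by quality (-0.63, 0.0479) brought it past the threshold, with adjusted p values up to 0.359 in other alternatives. Over all tested probes 2557 passed without that array and 840 with array weights, against 124 in the main fit.

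Psma5 (alpha 5) read 5.11, 4.91 and 5.07 in wild type against 4.66, 4.66 and 4.39 in the knockout, a difference of -0.46 ± 0.12 (SE, n = 3 per group, limma adjusted p 0.137). Psma3 (alpha 7) read 5.98, 6.11 and 6.18 against 5.82, 5.61 and 5.57, a difference of -0.42 ± 0.12 (adjusted p 0.14). In both genes the groups did not overlap. Psma1 (alpha 6) differed by -0.25, Psma4 (alpha 3) by -0.26 and -0.20 at its separate probes, and Psma2 (alpha 2) by -0.20, again with no overlap. Psma7 (alpha 4) differed by -0.21 and overlapped: knockout replicate 1 (6.12) lay above wild type replicate 2 (6.09). Psma8, which takes the place of Psma7 in the testis, was the alpha subunit with a positive difference, 0.08 ± 0.13 (adjusted p 0.735). Its level was -2.46, -2.61 and -2.52 in wild type against -2.24, -2.55 and -2.57 in the knockout, so that only knockout replicate 1 stood above the wild type arrays, and the sign turned without that array (-0.03) and under cyclic loess normalization (-0.02).

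The beta subunits include the 3 that cut peptides. All 8 tested beta probes, for 7 genes, were negative, with a median of -0.36 (77.8% of wild type). Psmb5, the subunit with chymotrypsin-like activity and the one that drugs such as bortezomib block, read 7.54, 7.55 and 7.44 in wild type against 7.13, 7.00 and 6.88 in the knockout at the brighter probe (chromosome 14, 55232957 to 55233016, minus strand). The 3 wild type values lay close together and every knockout value lay below them. The means were 7.51 ± 0.06 and 7.00 ± 0.13 (SD, n = 3), and the difference was -0.51 ± 0.11 (SE, limma adjusted p 0.101), or 70.4% of wild type. The other Psmb5 probe, which shares no bases with it, read 5.08, 5.12 and 5.10 against 4.90, 4.70 and 4.58, a difference of -0.37 ± 0.11.

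The remaining catalytic subunits differed by less than Psmb5 did at its brighter probe, and this order was not tested. Psmb6, with caspase-like activity, read 6.85, 6.59 and 6.71 in wild type against 6.49, 6.43 and 6.19 in the knockout, a difference of -0.35 ± 0.13 with no overlap. Psmb7, with trypsin-like activity, differed by -0.15 ± 0.12, and wild type replicate 2 (3.1) lay among the knockout values of 3.09, 3.17 and 3.15. Among the structural beta subunits Psmb3 (beta 3) read 6.60, 6.50 and 6.50 against 6.22, 6.19 and 5.88. Psmb3 differed by -0.43 ± 0.13, Psmb2 (beta 4) by -0.38 ± 0.09 and Psmb4 (beta 7) by -0.31 ± 0.13, each without overlap. Psmb1 (beta 6) differed by -0.14 ± 0.10 and overlapped.

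**Figure D2:**
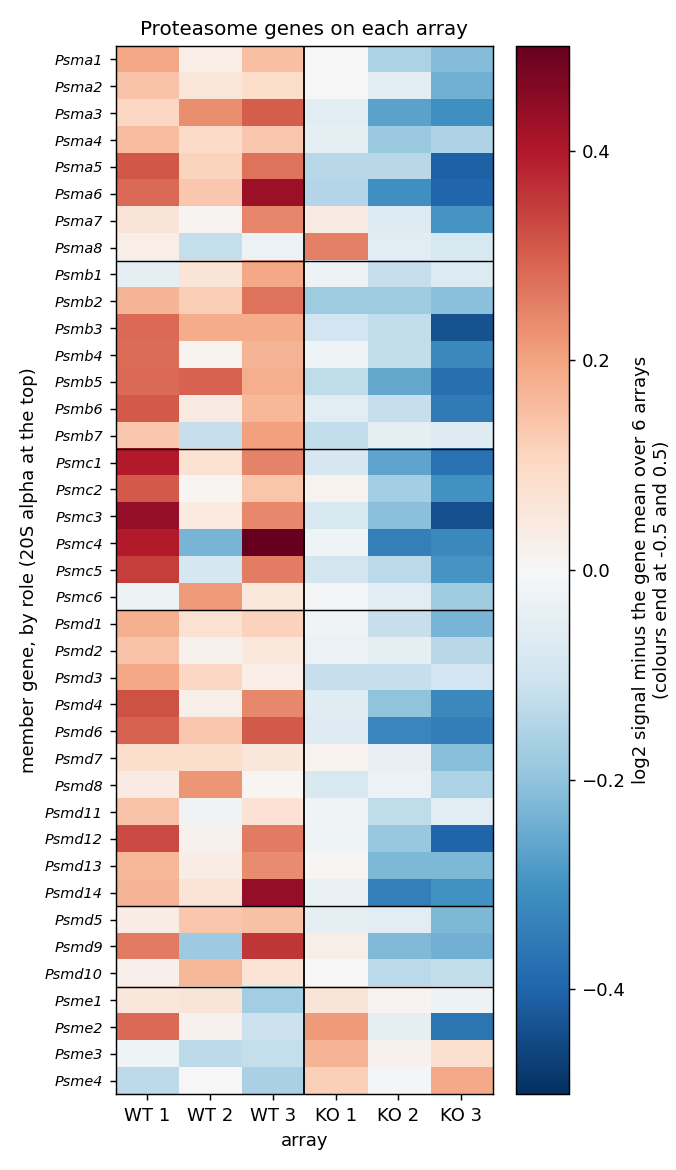
Each row is 1 member gene at its brightest tested probe and each column 1 array; colour gives log2 signal minus the gene's mean over the 6 arrays, with rows grouped by role. Wild type replicates 1 and 3 are mostly red and the knockout arrays mostly blue in the 20S and 19S rows, whereas wild type replicate 2 is paler and the activator rows do not follow.

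The ATPases Psmc1 to Psmc6 form the ring that unfolds the substrate and threads it into the core. All 9 probes for the 6 genes were negative, with a median of -0.44 (73.5% of wild type). At 1 probe per gene the median was -0.40. Psmc3 (Rpt5) had the most negative value, at a probe on chromosome 2, 90899526 to 90899585 on the plus strand. It read 6.90, 6.51 and 6.70 in wild type against 6.38, 6.25 and 6.02 in the knockout. The groups did not overlap, and the difference was -0.49 ± 0.15 (SE, n = 3 per group, limma adjusted p 0.162), with -0.44 at the other probe.

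Psmc1 (Rpt2) had the smallest p of the ring, at a probe on chromosome 12, 101361515 to 101361574 on the plus strand. Its level was 6.36, 6.04 and 6.21 in wild type against 5.88, 5.70 and 5.59 in the knockout, without overlap. The difference was -0.48 ± 0.13 (SE, n = 3 per group, limma adjusted p 0.142) and -0.45 at its other probe, which passed without wild type replicate 2 (-0.54, adjusted p 0.0494). Psmc4 (Rpt3) varied most among the wild type arrays: it read 4.32, 3.69 and 4.44 there and 3.90, 3.58 and 3.60 in the knockout. Wild type replicate 2 lay below knockout replicate 1, the difference was -0.45 ± 0.22 (adjusted p 0.281), and without that wild type array it passed at -0.68 (adjusted p 0.0464). Leaving out that array raised the count over all tested probes from 124 to 2557. Psmc5 (Rpt6) differed by -0.35 without overlap. Psmc2 (Rpt1) differed by -0.30 and -0.40 at probes that share 50 bases and are therefore not independent readings. Psmc6 (Rpt4) differed by -0.16 and overlapped.

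The non-ATPase subunits build the base scaffold and the lid of the regulatory particle. All 12 probes for 11 genes were negative, with a median of -0.24 (85.0% of wild type). The knockout arrays all lay below the wild type arrays in 10 of the 12, against 15.4% of all tested probes and 31.8% of the brightest 10%. At an unadjusted limma p under 0.05, 6 were lower, against 11.3% of all tested probes. Psmd6 (Rpn7), a lid subunit, had both the most negative value and the smallest p. At its probe on chromosome 14, 14946703 to 14946762 on the minus strand, it read 3.49, 3.33 and 3.50 in wild type against 3.13, 2.87 and 2.85 in the knockout, a difference of -0.49 ± 0.12 (SE, n = 3 per group, limma adjusted p 0.123).

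Psmd14 (Rpn11), the deubiquitinase that removes ubiquitin chains as the substrate enters, read 2.07, 1.97 and 2.34 in wild type against 1.87, 1.56 and 1.60 in the knockout. The groups did not overlap, and the difference was -0.44 ± 0.15 (SE, n = 3 per group, limma adjusted p 0.175). Psmd4 (Rpn10), a ubiquitin receptor, read 6.14, 5.85 and 6.06 against 5.76, 5.62 and 5.50, a difference of -0.39 ± 0.13 without overlap. The lid subunit Psmd12 (Rpn5) differed by -0.41 without overlap at its brighter probe and by -0.20 with overlap at the dimmer one. The lid subunits Psmd13 (Rpn9), Psmd3 (Rpn3), Psmd8 (Rpn12) and Psmd7 (Rpn8) differed by -0.29, -0.22, -0.18 and -0.16, none with overlap. The base scaffolds Psmd1 (Rpn2) and Psmd2 (Rpn1) differed by -0.25 and -0.15, also without overlap. Psmd11 (Rpn6), a lid subunit whose level is known to set proteasome assembly in human ES cells, differed by -0.14 ± 0.10 and overlapped.

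The factors that assemble the regulatory particle had the smallest median difference within it. The 5 probes of Psmd5, Psmd9 and Psmd10 had a median of -0.17 (88.7% of wild type) and 0 had an unadjusted p under 0.05. Signal was weaker at these probes than at the ATPase probes, and its part in the order of the medians was not tested. Psmd5 read 2.03, 2.13 and 2.14 in wild type against 1.95, 1.94 and 1.77 in the knockout, a difference of -0.21 ± 0.10 without overlap. Psmd10 (gankyrin) differed by -0.17 and -0.07 at its probes. Psmd9 differed by -0.29 and -0.07, both with overlap, the widest gap between the probes of 1 gene.

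Separate probes of 1 gene agreed in sign but not always in size. Of the 10 genes with several tested probes, 10 had the same sign at both, and the gap between them ran from 0.02 (Psme4) to 0.22 (Psmd9). The median of the core and regulatory probes, for scale, was -0.29. The 10 genes include Psmc2, whose probes share 50 bases.

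The activators bind the ends of the core in place of the regulatory particle and act without ubiquitin. Their 6 tested probes had a median of 0.11, 4 positive and 2 negative, and 0 had an unadjusted p under 0.05. The median was 0.04 without wild type replicate 3 and 0.05 with arrays aligned on the median of the probes tested, each with 3 probes of either sign. Psme4 (PA200), an activator found in nuclei and abundant in testis, had the most positive value. It read 0.62, 0.75 and 0.59 in wild type against 0.87, 0.74 and 0.94 in the knockout at its brighter probe (chromosome 11, 30756055 to 30756114, plus strand). Knockout replicate 2 lay just inside the wild type range, and the difference was 0.20 ± 0.11 (SE, n = 3 per group, limma adjusted p 0.314). At its other probe the difference was 0.22 ± 0.12 and the groups did not overlap.

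Psme3 (PA28 gamma), a nuclear activator, read 1.78, 1.67 and 1.68 in wild type against 1.97, 1.82 and 1.88 in the knockout. All knockout arrays lay above the wild type arrays, with a difference of 0.18 ± 0.10 (SE, n = 3 per group, limma adjusted p 0.324). Psme1 and Psme2 (PA28 alpha and beta) pair in the interferon-inducible activator. Psme1 differed by 0.04 ± 0.11, a sign that turned when arrays were aligned on the median of the probes tested (-0.02) and without wild type replicate 3 (-0.04). Psme2 read 4.71, 4.45 and 4.32 in wild type against 4.64, 4.38 and 4.06 in the knockout, overlapping, a difference of -0.13 ± 0.18 (adjusted p 0.692) that was 0.02 without knockout replicate 3. Of the 10 interferon response markers, the summed linear level was 18.3 to 35.6 times the 75th percentile in wild type and 18.1 to 25.3 times in the knockout. It was highest in wild type replicate 1, where Psme2 was highest too. In wild type replicates 2 and 3 the order was opposite: the sum was 18.3 and 25.2, and Psme2 read 4.45 and 4.32. A linear sum follows its brightest probes, and the part of the interferon response in the Psme2 values was not tested. The difference between the activators and the other members was not tested.

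**Figure D3:**
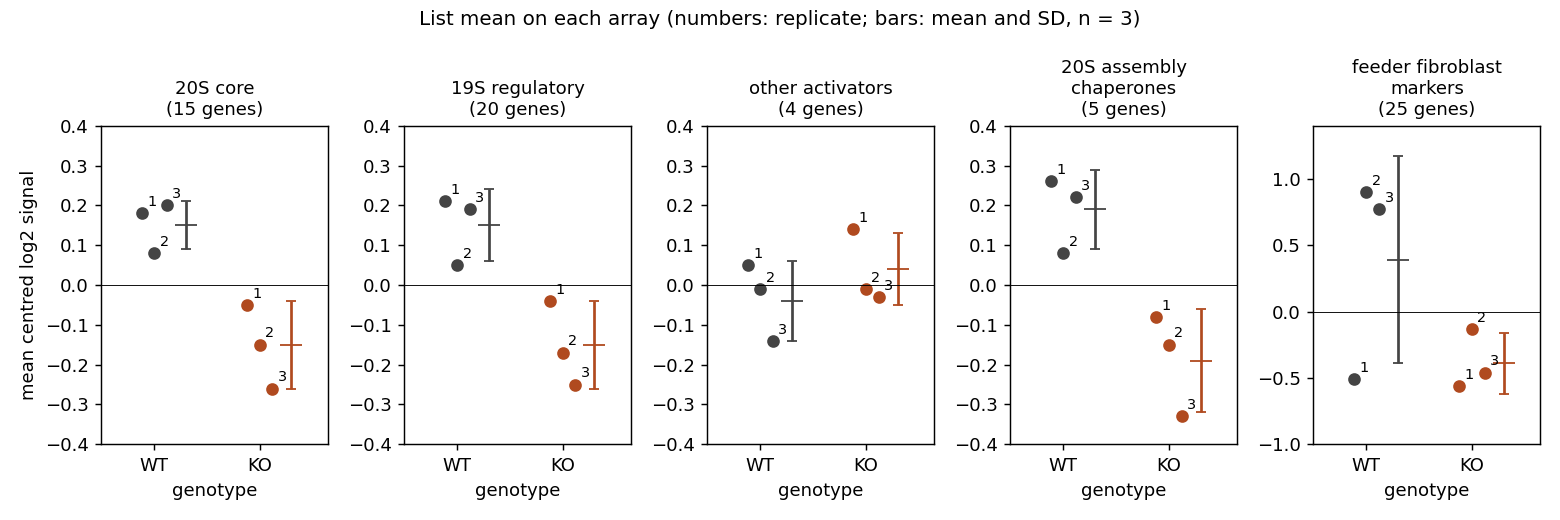
Mean over a list's genes of log2 signal centred on each gene's mean over the 6 arrays; points are arrays numbered by replicate, and the bars give the mean and SD of each genotype (n = 3). The feeder panel has a wider vertical scale than the others. All knockout points lie below all wild type points for the 20S core, 19S regulatory and assembly chaperone lists, and the groups overlap for activators and feeder markers.

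The core and the regulatory particle varied together from array to array. Averaged over the 15 tested core genes and centred on each gene's mean, the values were 0.18, 0.08 and 0.20 in wild type against -0.05, -0.15 and -0.26 in the knockout. The 20 regulatory genes gave 0.21, 0.05 and 0.19 against -0.04, -0.17 and -0.25. Wild type replicate 2 was the lowest wild type array in 32 of the 43 probes, and knockout replicate 1 was the highest knockout array in 37. The same counts over all tested probes were not made. That order was not particular to the members: the core assembly chaperone genes gave 0.26, 0.08 and 0.22 against -0.08, -0.15 and -0.33. The activators differed from it, with 0.05, -0.01 and -0.14 against 0.14, -0.01 and -0.03. The group means were 0.15 ± 0.06 and -0.15 ± 0.11 (SD, n = 3) for the core. They were 0.15 ± 0.09 and -0.15 ± 0.11 for the regulatory particle.

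Of the feeder markers, 22 of 25 genes had a negative difference, where 13705 of all 26649 tested probes did. Their median was -0.85, and 0 passed the limma test. The knockout arrays all lay below the wild type arrays in 3 of the 25 genes, against 15.4% of all tested probes. The feeder mean was -0.51 in wild type replicate 1 but 0.90 and 0.77 in the other wild type arrays. The knockout arrays gave -0.56, -0.13 and -0.46 for these markers. Their summed linear level was 236 to 368 times the 75th percentile in wild type and 219 to 268 times in the knockout. In wild type replicate 1 that mean lay within the range of the knockout, while the core and regulatory means were 0.18 and 0.21. Single markers departed from the list mean: Vim, an intermediate filament, read 4.10, 4.23 and 4.64 in wild type against 3.51, 3.82 and 3.42 in the knockout, and Serpinh1, a collagen chaperone, 3.09, 3.05 and 2.84 against 2.20, 2.54 and 2.29. In both, wild type replicate 1 lay with the other wild type arrays. The 3 feeder genes with a positive difference were Cyr61 (1.19, without overlap), Ctgf (0.58) and Fn1 (0.04), the last 2 with overlap. The part of feeder RNA in the members' values was not tested. ES cell markers summed to 456 to 519 times the percentile in wild type and 474 to 506 times in the knockout (a linear sum follows its brightest probes). Single markers differed in both directions without overlap, Pou5f1 by -0.47 ± 0.10 (SE, n = 3 per group, limma adjusted p 0.104), Nanog by 0.66 ± 0.22 and Klf4 by 0.56 ± 0.22. Their part in the members' values was not tested either.

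Signal strength moved with the difference. Among all tested probes ranked by mean signal, the brightest 10% had a median of -0.12, with 75% of probes negative and 31.8% with all knockout arrays below all wild type arrays. That class held 27 of the 43 core and regulatory probes, with a median of -0.37. Of these 27, 23 had all knockout arrays below all wild type arrays and 21 lay below its lower quartile of -0.24. The next 10% held 8, with a median of -0.19 against -0.11 for all its probes. Normalizations that treat signal ranges apart gave smaller medians: for the core -0.22 under quantile normalization and -0.19 under cyclic loess, a choice made after the data were seen, against -0.31 as reported. For the regulatory particle they were -0.18 and -0.19, against -0.29. In both, 34 or more of the 35 tested core and regulatory genes stayed negative, but several came close to 0. Under quantile normalization Psmb1 differed by -0.02, Psmb7, Psmd2 and Psmd11 by -0.03, Psmd7 by -0.04, Psmd8 by -0.05 and Psmc6 by -0.06. Psma1 and Psmd1, at -0.25 as reported, differed by -0.11 there. Psma6 and Psmb5 differed by -0.45 and -0.43. How much of the members' difference goes with signal strength was not tested beyond these values.

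**Figure D4:**
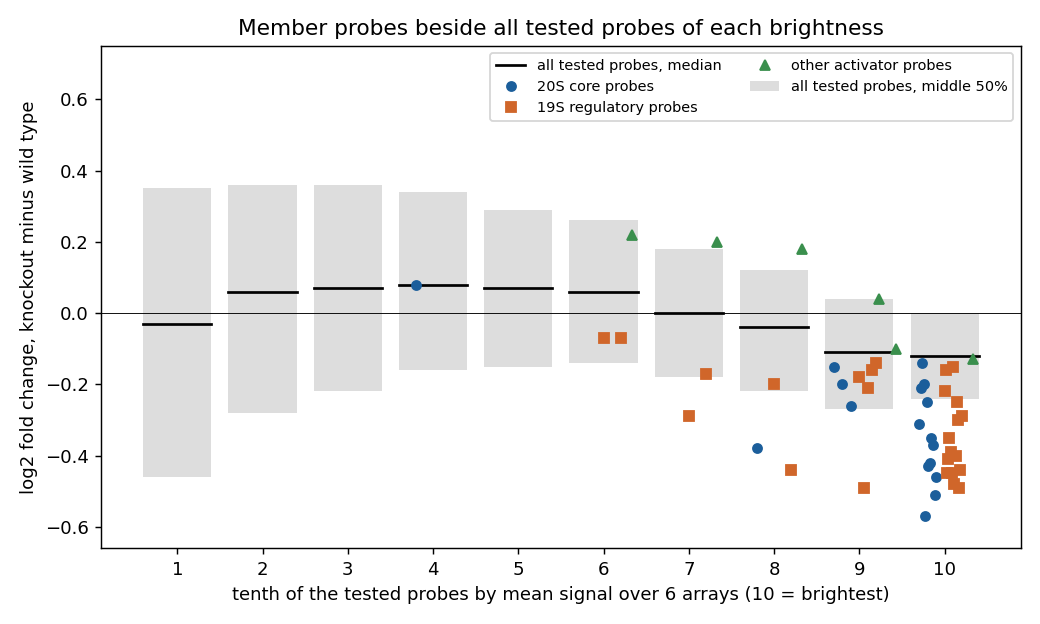
Log2 fold change of each member probe (points) by class of mean signal (each class 10% of the tested probes) over 6 arrays, with the median (line) and middle 50% (grey bar) of all tested probes in that class. Bright probes as a whole read slightly below 0, and most 20S and 19S probes in the brightest class lie below the grey bar, whose lower end is -0.24.

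Genes that build, load or regulate the proteasome were covered by a list of 36 genes. Of 51 tested probes 37 were negative and 14 positive, with a median of -0.15 (90.1% of wild type), and 0 passed the limma test. At an unadjusted p under 0.05, 8 were lower and 3 higher, against 11.3% and 10.6% of all tested probes. The higher ones were dim probes of Ufd1l (0.46), a cofactor of the segregase Vcp, and of Zfand5 (0.39 and 0.85), which binds the proteasome. Their brightest probes differed by -0.32 and 0.11. The probe at 0.85 carries the name Zfand5 but lies on the minus strand, opposite to the gene's other probes. It was above background on only 2 wild type arrays. The core assembly chaperones (Pomp and Psmg1 to Psmg4), which put the alpha and beta rings together, had 7 of 7 negative probes and a median of -0.33. Psmg4 read 2.23, 1.99 and 1.93 in wild type against 1.56, 1.62 and 1.44 in the knockout, a difference of -0.52 ± 0.12 (SE, n = 3 per group, adjusted p 0.114). Psmg3 read 2.18, 2.19 and 2.29 against 1.95, 1.98 and 1.70, a difference of -0.34 ± 0.12. The knockout arrays all lay below the wild type arrays in 5 of the 7 probes, and the other 2 overlapped. The share was 15.4% over all tested probes and 31.8% over the brightest 10%. At the brightest probe of each gene it held for all 5 chaperone genes.

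Other parts of the pathway were less uniform. Usp14, a deubiquitinase that docks on the regulatory particle, read 4.50, 4.31 and 4.47 in wild type against 4.14, 3.97 and 3.90 in the knockout, a difference of -0.42 ± 0.11 (SE, n = 3 per group, limma adjusted p 0.137). Uchl5, another docked deubiquitinase, differed by -0.30 with overlap. Among shuttles and segregases Ubqln1, which carries ubiquitinated proteins to the proteasome, differed by -0.32 with overlap, and the segregase Vcp by -0.29 without. The regulatory subunit Shfm1 differed by -0.15, and Psmf1, an inhibitor of the core, by 0.17, each without overlap.

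The immunoproteasome subunits, which replace catalytic beta subunits under interferon, did not share 1 direction. Psmb10 read 3.94, 3.29 and 4.03 in wild type against 3.39, 3.09 and 2.96 in the knockout. It overlapped at wild type replicate 2, the difference was -0.61 ± 0.23 (SE, n = 3 per group, limma adjusted p 0.206), and without that array it passed at -0.84 (adjusted p 0.0418). Psmb8 differed by -0.24 and Psmb9 by 0.20, both with overlap. A dimmer probe of the shuttle gene Rad23b also passed without wild type replicate 2 (-0.53, adjusted p 0.0396), whereas its brightest probe differed by -0.18 and its dimmest by 0.83. Without that replicate 2557 of all tested probes passed, against 124 with every array.

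Nfe2l1, the factor that raises proteasome genes together, differed by 0.11 ± 0.11 (SE, n = 3 per group, limma adjusted p 0.562), reading -2.14, -2.15 and -2.37 in wild type against -2.07, -2.11 and -2.16 in the knockout. Nfe2l2, a related factor, differed by -0.16 with overlap. Ddi2, the protease that releases Nfe2l1 from the endoplasmic reticulum, differed by -0.34 ± 0.14 without overlap.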

How the data were processed

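Scanner output deposited by the authors gives linear spot intensity, with each array in its own file. Per the file headers, Agilent Feature Extraction 10.7.3.1 subtracted background by a spatial detrend and put a surrogate value where a signal was not above background. Version 10.3.1.1 stands in the submitters' processing notes. The series table deposited by the authors holds log2 values centred per probe, with column scaling not given, and served as an alternative. The deposited 0 or 1 flags for detection, saturation and outliers were used as such.

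From the tables, control and outlier spots were left out, spots of a probe were averaged, and log2 processed signal was taken minus each array's 75th percentile. A probe was tested where well above background on at least 3 of 6 arrays (26651 probes, 67.6%, of which 26649 could be fitted). The number of arrays limits the precision. Genotypes were compared with limma 3.58.1, lmFit then eBayes (R 4.3.3, data.table version 1.17.8), two-sided, with Benjamini-Hochberg adjustment over all tested probes and a threshold of 0.05. The procedure was tested on simulated data. A gene's representative was its tested probe with the highest mean. Within alpha, beta, ATPase, non-ATPase and activator groups, the genes with the most positive and most negative value and the smallest p are given array by array; other genes given so, and Rad23b, Ufd1l and Zfand5 were chosen after their values were seen. Of the pathway list, up to 2 genes with the smallest p per sublist are given. The genes of one sublist so chosen are not reported here. Probe positions are those of the scanner files (mm9), without exon or UTR placement; gene names are the files' own. The members and lists were chosen with earlier results of these data known.

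Alternatives covered background correction, normalization between arrays, the detection filter, the variance prior, array weights, a replicate block, the authors' table, gene means and leaving out each array. Cyclic loess was added after the data were seen.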

Additional observations from a re-analysis of the deposited data

How the results depend on the processing

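Under every alternative run, 34 or 35 of the 35 tested core and regulatory genes kept a negative difference. Of 255 values of core genes under the alternatives 251 kept their direction and side of the threshold, as did 339 of 340 values of regulatory genes and 65 of 68 of activators. Since no member passed in the main fit, a value counted as kept if its sign held and it did not pass. Its size could still shrink, as for Psmb1 from -0.14 to -0.02 under quantile normalization. All alternatives used these same arrays, where slide goes with genotype. The sign changed for Psma8 under cyclic loess (-0.02) and without knockout replicate 1 (-0.03). It changed for Psme1 with arrays aligned on the median (-0.02) and without wild type replicate 3 (-0.04), and for Psme2 without knockout replicate 3 (0.02). With other arrays left out the sign was kept, as in Psma8 (up to 0.14), Psme1 (0.08 without wild type replicate 2) and Psme2 (-0.27 without knockout replicate 1). The cause of the sign changes was not tested.

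The median difference moved beyond the spread between replicates for the core, to -0.22 under quantile normalization and -0.19 under cyclic loess, and for the regulatory particle, to -0.18 under quantile normalization. With 1 array left out, called probes ran from 0 to 1 in the core (also 1 with array weights), from 0 to 2 in the regulatory particle and from 0 to 2 in the pathway list. Over all tested probes 124 were called. The count was 840 with array weights (434 higher and 406 lower), 231 with arrays aligned on the median of the probes tested (54 and 177), and 0 with detection on all 6 arrays, with no detection filter, under normexp background correction (offset 50) or with a trended and robust prior. It ran from 0 to 2557 with 1 array left out. With detection on all 6 arrays 24227 probes were tested and with no detection filter 39427, against 26649 in the main fit. The causes of these changes in count were not tested. The median over all tested probes lay between -0.07 (arrays aligned on the median) and 0.05 (no filter).

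Deviations of same-numbered arrays from their group means correlated at 0.16, 0.23 and -0.14, and those of differently numbered arrays at -0.32 to 0.21. Whether the replicate numbers pair the cultures cannot be told from these values. With a replicate block 0 probes were called in all, and the lowest adjusted p of the core and regulatory genes was 0.21. Slide as a block was not run, since each slide held 1 genotype. All 49 tested probes of the members were well above background on every array.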
